A study of Mus musculus with 79 samples.

Results

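The genes that encode integrin subunits and laminin chains were examined in whole lung RNA of mice exposed to cigarette smoke or to sham air for 1 or 5 days. A gene was a member when its symbol was that of an integrin alpha subunit (Itga followed by a number, or by d, e, l, m, v or x), of an integrin beta subunit (Itgb and a number) or of a laminin chain (Lama, Lamb or Lamc and a number). The rule matched 37 genes of the mouse annotation, and 36 of them had a row in the array table of 31350 rows: 25 integrin subunits and 11 laminin chains, each with 1 row. Itga10 was not analysed here. The members were sorted by role into 8 leukocyte integrin subunits, 17 subunits that bind matrix or are shared, and the laminin chains.

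The series held 79 arrays, 1 per mouse, in 16 groups of 4 to 6 mice. The mice were C57BL/6J wild type (WT) animals and littermates that carry an Scnn1b transgene (βENaC mice), male and female, 5 to 7 weeks old. The transgene overexpresses the beta subunit of the epithelial sodium channel in airway epithelial cells, so that βENaC mice have dehydrated mucus and inflamed lungs before any smoke. Smoke-exposed mice received mainstream and side-stream smoke of 6 unfiltered 3R4F research cigarettes per day, sham-exposed mice sat in the same chamber in room air, and the right lung was taken 4 hours after the last exposure. The 1-day arm had 20 smoke and 20 sham animals, and the 5-day arm had 19 and 20. In 13 WT smoke samples 1 label field named the other genotype, and the title and genotype fields, which gave the same genotype, were used.

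Integrins are pairs of an alpha and a beta subunit that span the cell membrane and bind other cells or the matrix. The beta2 integrins (Itgb2 paired with Itgal, Itgam, Itgax or Itgad) and the integrins of Itga4, Itgae and Itgb7 sit on leukocytes, where they serve adhesion to vessel walls, phagocytosis and retention in epithelium. Integrins built on Itgb1, Itgav or Itgb4 bind collagens, fibronectin, tenascin or laminins in many cell types. Laminins are trimers of an alpha, a beta and a gamma chain and are the scaffold of the basement membrane, the thin matrix sheet under epithelium and around vessels and muscle.

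Values are log2 intensities, and a difference (coefficient) is on the log2 scale from a linear model with genotype, exposure and sex, fitted with limma separately at 1 and 5 days. A gene rose, fell or differed when its p-value, adjusted over all 31350 rows, was below 0.05. Intensities of different genes were not compared, because each gene has its own probes. The labels were checked first. Scnn1b was between 11.52 and 11.88 in the 39 βENaC mice and between 8.42 and 9.48 in the 40 WT mice, with no overlap. Cyp1a1, a detoxifying enzyme induced by smoke, was between 9.96 and 11.59 in the smoke-exposed mice and between 5.43 and 8.98 in the sham-exposed mice, again with no overlap. The authors had already removed 1 array whose smoke label they judged wrong, from plasma cotinine and gene expression. The Cyp1a1 check is therefore not independent of that removal. Markers of lung epithelium were high in every mouse: Sftpc of type 2 cells was at least 12.51, Scgb1a1 of club cells at least 13.07 and Ager of type 1 cells at least 11.63 in log2 intensity. After their values were seen, 3 mice were singled out as standing apart. WT smoke female 5 days replicate 2 and βENaC smoke female 5 days replicate 3 each lay far from their groups in 4 of the 13 members described in full, and WT smoke female 1 day replicate 5 in 2 of them, Lama1 and Lamc3. Results that rest on them are given with and without them. Another 3 mice also lay apart in 2 of the 13 members, and βENaC sham male 1 day replicate 1 had the second lowest agreement with the arrays of its group (mean r = 0.981) and the highest Itga7, Itgb8, Itgam and Itga5 of all mice. A fit without all 7 of these mice is given where it changes a result of a member described in full.

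At 1 day of smoke, 7 of the 36 members rose and 4 fell, where 5.03% of all rows rose and 4.43% fell. At 5 days 3 members rose and 9 fell, where 3.17% of all rows rose and 3.37% fell. The members that fell at 1 day were all leukocyte integrins, and 5 of the 7 that rose were laminin chains. Whole lung RNA mixes cells, so that fewer cells of a type and less RNA per cell cannot be told apart in any of these changes. Changes of more than 1.3-fold were seen in 5 members at 1 day (1.07% of all rows) and 3 members at 5 days (1.15% of all rows): Itgal and Itgam fell and Lamc3 rose by that much at both durations, and Itga4 fell and Lama1 rose by that much at 1 day. The 5-day coefficients of Itgal and Lamc3 were under 1.3-fold, and still past the test, without the 3 mice that stood apart (-0.35 and 0.34). Leaving out WT smoke female replicate 2 alone was enough for both (-0.35 and 0.32), and so was leaving out βENaC sham female replicate 3 for Itgal (-0.38) and βENaC sham male replicate 3 for Itgam (-0.38), where the limit is 0.379. Without the 3 mice that stood apart, 10 members changed at 1 day, 10 of them among those above, and 13 at 5 days, 12 of them among those above. Without the 7 mice 13 members changed at 1 day and 14 at 5 days, 10 and 12 of them among those above.

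**Figure D1:**
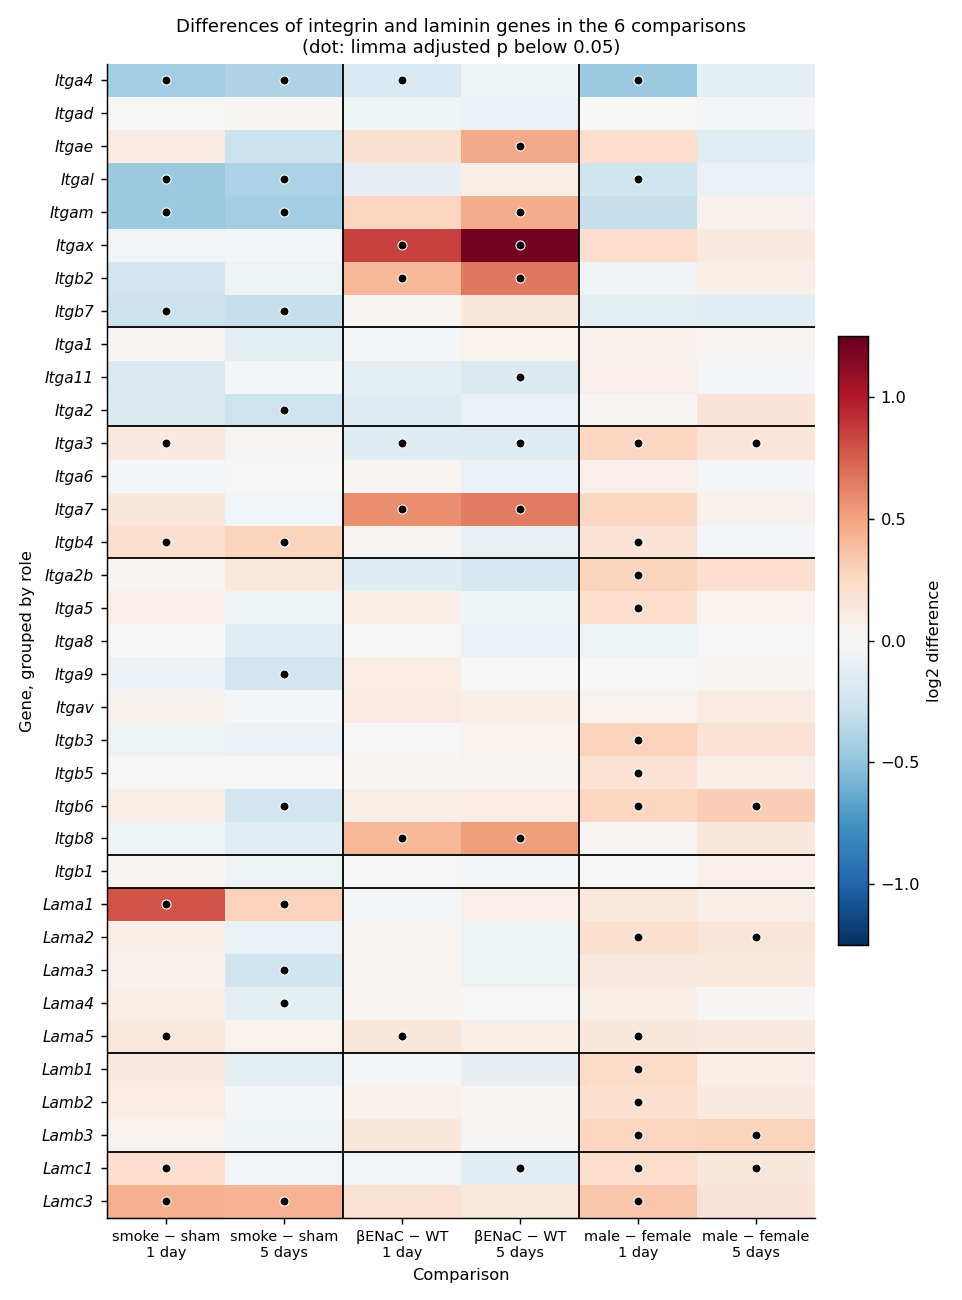
Log2 differences of the members shown (rows, grouped by role) in the exposure, genotype and sex comparisons at 1 and 5 days (columns); red is higher and blue lower in the first-named group, and a dot marks an adjusted p below 0.05. Itgal, Itgam, Itga4 and Itgb7 were lower after smoke at both durations, and Itgax and Itgb2 were higher in βENaC mice at both durations.

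The leukocyte integrin genes Itgal, Itgam, Itga4 and Itgb7 fell after smoke at both durations. Itgal (NM_001253872, chromosome 7, 127296139 to 127335137, GRCm38.p6) encodes the alpha subunit of LFA-1, which binds ICAM proteins on endothelium. At 1 day its lowest, median and highest values were 7.15, 7.54 and 8.02 in smoke-exposed and 7.32, 7.99 and 8.70 in sham-exposed mice. At 5 days they were 6.64, 7.60 and 7.92 against 7.64, 7.88 and 8.36. The ranges overlapped, but each of the 39 smoke-exposed mice lay under the average of its sham group of like genotype and sex (the matched sham mean): 20 of 20 at 1 day and 19 of 19 at 5 days. The exposure coefficient of Itgal was -0.46 (SE 0.07, limma adjusted p = 1.3e-05) at 1 day and -0.40 (SE 0.07, adjusted p = 0.000258) at 5 days. Replicate 2 of the WT smoke female group at 5 days had the lowest value of Itgal; without the 3 mice that stood apart the 5-day coefficient was -0.35.

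Itgam (NM_001082960, chromosome 7, 128062640 to 128118491) encodes CD11b, the alpha subunit of Mac-1 on neutrophils, monocytes and macrophages. At 1 day the lowest, median and highest values were 6.90, 7.51 and 8.25 after smoke and 7.10, 7.88 and 9.18 after sham exposure. At 5 days they were 6.91, 7.46 and 9.12 against 7.29, 7.80 and 9.02. The groups overlapped widely, and after smoke 19 of 20 animals (1 day) and 17 of 19 (5 days) were below the matched sham mean. The coefficient of Itgam was -0.46 (SE 0.14, limma adjusted p = 0.031) at 1 day and -0.43 (SE 0.13, adjusted p = 0.0321) at 5 days, a fall of 1.38-fold and 1.35-fold. Leaving out any 1 of 3 mice at 1 day (WT smoke female replicate 2, WT sham female replicate 2, WT sham male replicate 1) or any 1 of 5 mice at 5 days (βENaC smoke female replicate 4, βENaC sham female replicate 3, βENaC sham male replicates 2 and 3, WT smoke male replicate 5) raised the adjusted p of Itgam above 0.05, up to 0.0543 and 0.0545. Without the 3 mice that stood apart its coefficients were -0.49 and -0.50 (adjusted p = 0.0215 and 0.00118).

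Itga4 (NM_010576, chromosome 2, 79255426 to 79333114) encodes the alpha subunit of VLA-4 and of alpha4-beta7, which bind VCAM-1 and MAdCAM-1. In smoke-exposed mice of 1 day the lowest, median and highest values were 8.21, 8.62 and 9.13, and in their sham controls 8.40, 9.04 and 9.88. At 5 days they were 7.72, 8.62 and 9.01 against 8.45, 8.93 and 9.30. After smoke 20 of 20 animals (1 day) and 17 of 19 (5 days) were below the matched sham mean. The coefficient of Itga4 was -0.44 (SE 0.06, limma adjusted p = 1.34e-06) at 1 day and -0.38 (SE 0.08, adjusted p = 0.00219) at 5 days, and -0.31 at 5 days without the 3 mice that stood apart. Itgb7, the beta partner of Itga4 and Itgae, had coefficients of -0.27 (SE 0.07, adjusted p = 0.00917) and -0.29 (SE 0.08, adjusted p = 0.022), and its 5-day coefficient was -0.23 without those mice.

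In the fits of all mice, none of the other leukocyte integrins passed the test for smoke at either duration. Itgb2, the beta subunit shared by LFA-1 and Mac-1, had coefficients of -0.24 and -0.06, Itgax (CD11c) of -0.03 and -0.01, and Itgae (CD103) of 0.10 and -0.27. Without the 7 mice, Itgae passed at 5 days (-0.29, limma adjusted p = 0.0306). Itgad was at 2.73 to 3.37 in all mice, below the array medians, with coefficients of 0.00 and 0.01. Over the 8 leukocyte integrins the median coefficient was -0.25 at 1 day and -0.28 at 5 days, beside 0.010 and -0.0018 over all rows. The exposure coefficients in WT mice alone were -0.56 and -0.39 for Itgal, -0.64 and -0.44 for Itgam and -0.46 and -0.43 for Itga4, and in βENaC mice alone -0.37 and -0.42, -0.29 and -0.42, and -0.41 and -0.32. With the fewer mice of 1 genotype, Itgam passed the limma test in WT mice (adjusted p = 0.0448 at 1 day and 0.0296 at 5 days) and not in βENaC mice (0.554 and 0.516). Itgal passed in WT mice at 1 day (0.00183) and not at 5 days (0.106), and in βENaC mice at 5 days (0.00518) and not at 1 day (0.0544). Itga4 passed in WT mice at 1 day (0.00277) and not at 5 days (0.105), and in βENaC mice at both durations (0.0124 and 0.0497). Itgb2 passed in WT mice at 1 day (-0.40, adjusted p = 0.00278) and not in βENaC mice (-0.08, adjusted p = 0.909). At 5 days Itgb2 passed in neither (0.02 in WT and -0.14 in βENaC mice). Itgb7 passed in WT mice at 1 day (-0.39, adjusted p = 0.0134) and not in βENaC mice (-0.15, adjusted p = 0.527). At 5 days Itgb7 passed in neither (-0.38 in WT and -0.21 in βENaC mice). The difference between the genotypes did not pass its own test at either duration for Itgam (0.34, SE 0.29, and 0.03, SE 0.26), Itgal (0.19, SE 0.14, and -0.02, SE 0.15) or Itga4 (0.05, SE 0.12, and 0.12, SE 0.17). Nor did it pass for Itgb2 or Itgb7.

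**Figure D2:**
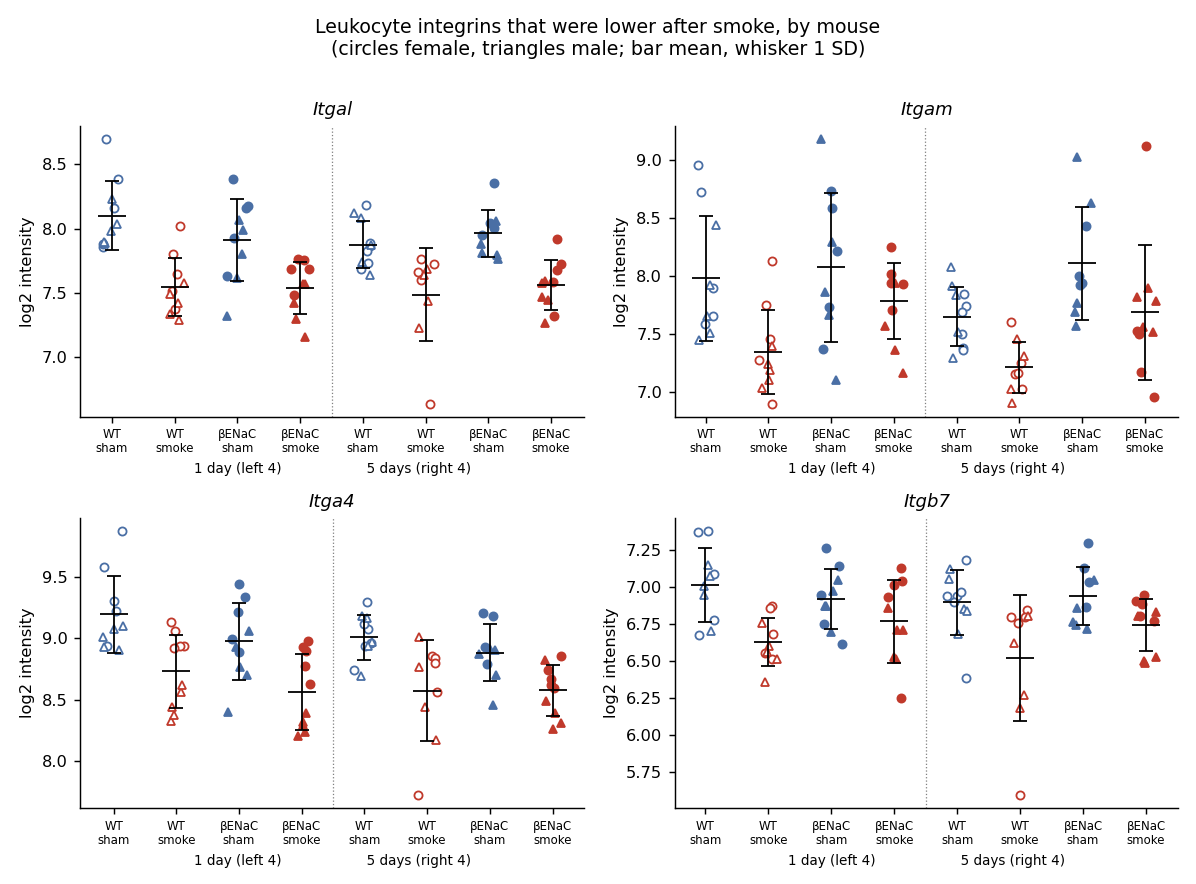
Log2 intensity (vertical axis) of Itgal, Itgam, Itga4 and Itgb7 in each mouse, in 8 columns by genotype, exposure and duration (left 4 columns 1 day, right 4 columns 5 days); blue is sham, red is smoke, filled symbols are βENaC mice, circles are females and triangles males, and bars are means with 1 SD. The red means lie below the blue means beside them in every genotype and duration, while single mice overlap.

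Of 8 monocyte markers, 5 fell after 1 day and 6 after 5 days of smoke, and none rose. The largest change in that list was in Treml4, with -0.67 (SE 0.11) and -0.73 (SE 0.10). The mean log2 intensity of the 8 monocyte markers lay between 6.68 and 7.54 in smoke-exposed and 6.82 and 8.19 in sham-exposed mice at 1 day, and between 6.33 and 7.25 against 7.13 and 7.71 at 5 days. Of 7 neutrophil markers, 1 fell at 1 day (Retnlg, -0.66, named after its values were seen) and 0 at 5 days. At an unadjusted p below 0.05 there were 3 at 1 day and 2 at 5 days. The median coefficient of the 7 neutrophil markers was -0.45 at 1 day and -0.21 at 5 days. That of the 8 monocyte markers was -0.41 and -0.475. The mean of the 7 lay between 6.12 and 7.78 after smoke against 6.08 and 8.66 at 1 day. At 5 days it lay between 5.95 and 8.18 against 6.15 and 7.92. None of 8 T cell, 5 NK cell or 6 B cell markers changed at either duration by the limma test. At an unadjusted p below 0.05 there were 0, 2 and 3 of them at 1 day and 0, 0 and 0 at 5 days. The median coefficients of these 3 lists were 0.03, -0.22 and -0.29 at 1 day and -0.14, -0.16 and -0.28 at 5 days. At 5 days 2 of 4 eosinophil markers fell, with the largest change in Ccr3 (-0.91, SE 0.26), as did 2 of 6 dendritic cell markers, led by Xcr1 (-0.38, SE 0.09), and 1 of 7 alveolar macrophage markers, Ear2 (-0.41, SE 0.07); none of these lists had a marker that rose, and none changed at 1 day, when 2, 2 and 0 had an unadjusted p below 0.05. The mean of the 4 eosinophil markers at 5 days lay between 3.30 and 5.33 after smoke and 3.55 and 5.22 after sham exposure, that of the 6 dendritic cell markers between 5.59 and 6.47 against 6.03 and 6.96, and that of the 7 alveolar macrophage markers between 9.01 and 10.10 against 8.997 and 10.11. Markers of red cells also moved with smoke at 5 days, when all 4 rose, with the largest change in Slc4a1 (1.89, SE 0.20). The part of these cell types in the integrin changes was not tested.

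Promoter sequence from RefSeq (build GRCm38.p6) was at hand for 22 of the 36 members. It is shown for Itgam and Itga4, which fell together after smoke, and for Itgax, the neighbour of Itgam on chromosome 7, which did not pass the test for smoke. The sequences lie before the annotated gene start, read 5′ to 3′ on the plus strand, at chr7:128062390-128062639, chr2:79255176-79255425 and chr7:128129300-128129525. They hold 250 bases for Itgam and Itga4, and 226 for Itgax, whose annotated gene start lies inside the window of 250 bases that was searched. Capitals mark GAGGAA, the core bound by the myeloid factor PU.1, or ACCACA, the core bound by RUNX factors, each searched on both strands.
Itgam: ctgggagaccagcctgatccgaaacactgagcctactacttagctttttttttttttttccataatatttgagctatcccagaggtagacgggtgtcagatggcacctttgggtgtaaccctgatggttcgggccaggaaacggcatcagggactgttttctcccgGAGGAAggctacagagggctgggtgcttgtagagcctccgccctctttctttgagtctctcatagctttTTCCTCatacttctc
Itga4: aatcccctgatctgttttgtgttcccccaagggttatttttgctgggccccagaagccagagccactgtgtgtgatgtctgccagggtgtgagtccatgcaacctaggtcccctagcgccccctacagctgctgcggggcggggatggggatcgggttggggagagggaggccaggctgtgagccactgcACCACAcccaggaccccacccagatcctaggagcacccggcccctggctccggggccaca
Itgax: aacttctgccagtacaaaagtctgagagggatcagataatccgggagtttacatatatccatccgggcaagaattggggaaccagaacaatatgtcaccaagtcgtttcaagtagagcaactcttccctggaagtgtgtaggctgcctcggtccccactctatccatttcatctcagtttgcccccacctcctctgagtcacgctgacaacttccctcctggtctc
The Itgam sequence held GAGGAA beginning 84 bases before the start, and its reverse complement 15 bases before the start. The Itga4 sequence held ACCACA beginning 60 bases before the start, and neither was found in the 250 bases searched for Itgax. Of all 32851 windows of 250 bases, 23.3% held GAGGAA and 14% held ACCACA on either strand. Of the 25 windows of the 22 members, 13 held GAGGAA, among them windows of the matrix members Itgb1, Itgav, Itga5, Lama2 and Lamb1, and 2 held ACCACA, those of Itga4 and Itga3. The window of Itgb7, which also fell after smoke, held neither. These matches describe letters and were not tested as binding sites.

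In βENaC mice another set of leukocyte integrins stood out. At 1 day 5 members were higher and 2 lower than in WT mice (3.58% and 2.29% of all rows), and at 5 days 6 were higher and 3 lower (4.85% and 5.33% of all rows). The differences over 1.3-fold, 4 members at 1 day (1.54% of all rows) and 6 at 5 days (2.52% of all rows), were all higher in βENaC mice: Itgax, Itgb2, Itga7 and Itgb8 at both durations, and Itgam and Itgae at 5 days. Each of these differences also passed the test without the 3 mice that stood apart. Without the 7 mice, Itgb2 at 1 day did not pass (0.35, limma adjusted p = 0.0532), and Itgb8 at 1 day passed at under 1.3-fold (0.32, adjusted p = 0.0254). Leaving out βENaC sham male 1 day replicate 1 alone brought both under 1.3-fold (0.36 and 0.33), still past the test.

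Itgax (NM_021334, chromosome 7, 128129526 to 128150657) encodes CD11c, carried by alveolar macrophages and dendritic cells. Levels of Itgax at 1 day (lowest, median, highest) were 7.42, 8.35 and 9.87 in βENaC and 7.09, 7.55 and 8.002 in WT mice. At 5 days they were 7.96, 8.85 and 10.27 against 7.23, 7.70 and 8.26. The ranges overlapped, and 17 of 20 βENaC mice (1 day) and 19 of 19 (5 days) exceeded the average WT animal of like exposure and sex (the matched WT mean). The genotype coefficient of Itgax was 0.85 (SE 0.17, limma adjusted p = 0.00104) at 1 day and 1.21 (SE 0.14, adjusted p = 1.24e-07) at 5 days, or 1.80-fold and 2.31-fold. The spread between βENaC mice was also wider, with an SD of 0.76 at 1 day and 0.60 at 5 days, where the SDs of WT animals were 0.25 and 0.27.

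Itgb2 (NM_008404, chromosome 10, 77530329 to 77565708) encodes CD18, the beta subunit of the whole beta2 family. Levels of Itgb2 at 1 day (lowest, median, highest) were 8.79, 9.56 and 10.58 in βENaC and 8.80, 9.19 and 9.67 in WT mice, and at 5 days 9.08, 9.79 and 10.61 against 8.68, 9.18 and 9.51. The groups overlapped at both durations, with 17 of 20 and 18 of 19 βENaC mice above the matched WT mean. Its coefficient was 0.41 (SE 0.11, limma adjusted p = 0.0165) and 0.66 (SE 0.10, adjusted p = 4.38e-06).

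Itgam, which fell after smoke, was higher in βENaC mice at 5 days, with a coefficient of 0.46 (SE 0.13, limma adjusted p = 0.0136). Its values there were between 6.96 and 9.12 with a median of 7.78 in βENaC mice, and between 6.91 and 8.08 with a median of 7.42 in WT mice. At 1 day its coefficient was 0.27 and did not pass the test. In mice of 5 days the group means of Itgam were 7.65 in sham-exposed WT, 7.21 in smoke-exposed WT, 8.11 in sham-exposed βENaC and 7.68 in smoke-exposed βENaC mice, with SDs of 0.26, 0.22, 0.48 and 0.58. βENaC smoke female replicate 3 had the highest Itgam value of that group, 9.12, and without the 3 mice that stood apart the genotype coefficient at 5 days was 0.37 (adjusted p = 0.0162).

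Itgae (NM_008399, chromosome 11, 73090505 to 73147449) encodes CD103, which holds lymphocytes and dendritic cells to E-cadherin of epithelium. At 5 days its lowest, median and highest values were 5.41, 5.85 and 6.43 in βENaC and 4.61, 5.46 and 5.92 in WT mice, and all 19 βENaC mice were above the matched WT mean. Its coefficient was 0.48 (SE 0.10, limma adjusted p = 0.000837) at 5 days and 0.19, not past the test, at 1 day. Itga4 was lower in βENaC mice at 1 day, by -0.19 (SE 0.06, adjusted p = 0.038), and this call was lost in 16 of the 40 fits that each left out 1 mouse and without the 7 mice (adjusted p = 0.113). Itgal and Itgb7, which fell with smoke, had genotype coefficients of -0.10 and 0.09, and of 0.02 and 0.14, that did not pass the test.

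Of 7 alveolar macrophage markers, 3 were higher in βENaC mice at 1 day and 4 at 5 days, and none was lower. The largest of them was Marco, a scavenger receptor, with 0.86 (SE 0.20) and 0.84 (SE 0.17). The mean of the 7 markers lay between 8.86 and 10.03 in βENaC and 8.65 and 9.30 in WT animals (1 day), and between 9.01 and 10.11 and 8.997 and 9.42 (5 days). Of 6 dendritic cell markers, 1 was higher and 1 lower in βENaC mice at 1 day, and 2 were higher at 5 days. Their part in the differences of Itgax and Itgb2 was not tested.

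Among integrins outside the leukocyte group, Itga7 and Itgb8 were the members that differed most by genotype. Itga7 (NM_008398, chromosome 10, 128933421 to 128958286) encodes the laminin receptor of muscle. Levels of Itga7 at 1 day (lowest, median, highest) were 5.45, 6.42 and 8.25 in βENaC and 5.44, 5.88 and 6.25 in WT mice, and at 5 days 5.61, 6.45 and 7.57 against 5.41, 5.85 and 6.32. The ranges overlapped, and 17 of 20 and 17 of 19 βENaC mice were above the matched WT mean. Its coefficient was 0.58 (SE 0.14, limma adjusted p = 0.0056) at 1 day and 0.65 (SE 0.13, adjusted p = 0.000678) at 5 days. Of 6 smooth muscle markers none was higher in βENaC mice, and 1 was lower at 1 day and 3 at 5 days. Of 3 heart muscle markers none differed, with median coefficients of -0.21 at 1 day and -0.30 at 5 days. At each duration the mouse with the highest Itga7 also had the highest Itgax, which was noticed after the values were seen. The part of muscle or of other cells in the result was not tested.

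Itgb8 (NM_177290, chromosome 12, 119162803 to 119238276) encodes the partner of the alphav subunit that binds latent TGF-beta. Its lowest, median and highest values at 1 day were 4.48, 5.04 and 6.61 in βENaC and 4.21, 4.80 and 5.11 in WT mice, and at 5 days 4.84, 5.47 and 6.04 against 4.32, 4.92 and 5.31. At 1 day 16 of 20 and at 5 days all 19 βENaC mice were above the matched WT mean. Its coefficient was 0.41 (SE 0.11, limma adjusted p = 0.0163) and 0.53 (SE 0.08, adjusted p = 2.52e-05). Itgav, its alpha partner, had coefficients of 0.10 and 0.07 that did not pass the test. Smaller differences past the test were lower levels in βENaC mice of Itga3, a laminin receptor subunit of epithelium, by -0.15 and -0.16, and of the collagen receptor subunit Itga11 by -0.18 at 5 days. Itga11 was at 2.94 to 4.03 in all mice, below the array medians.

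**Figure D3:**
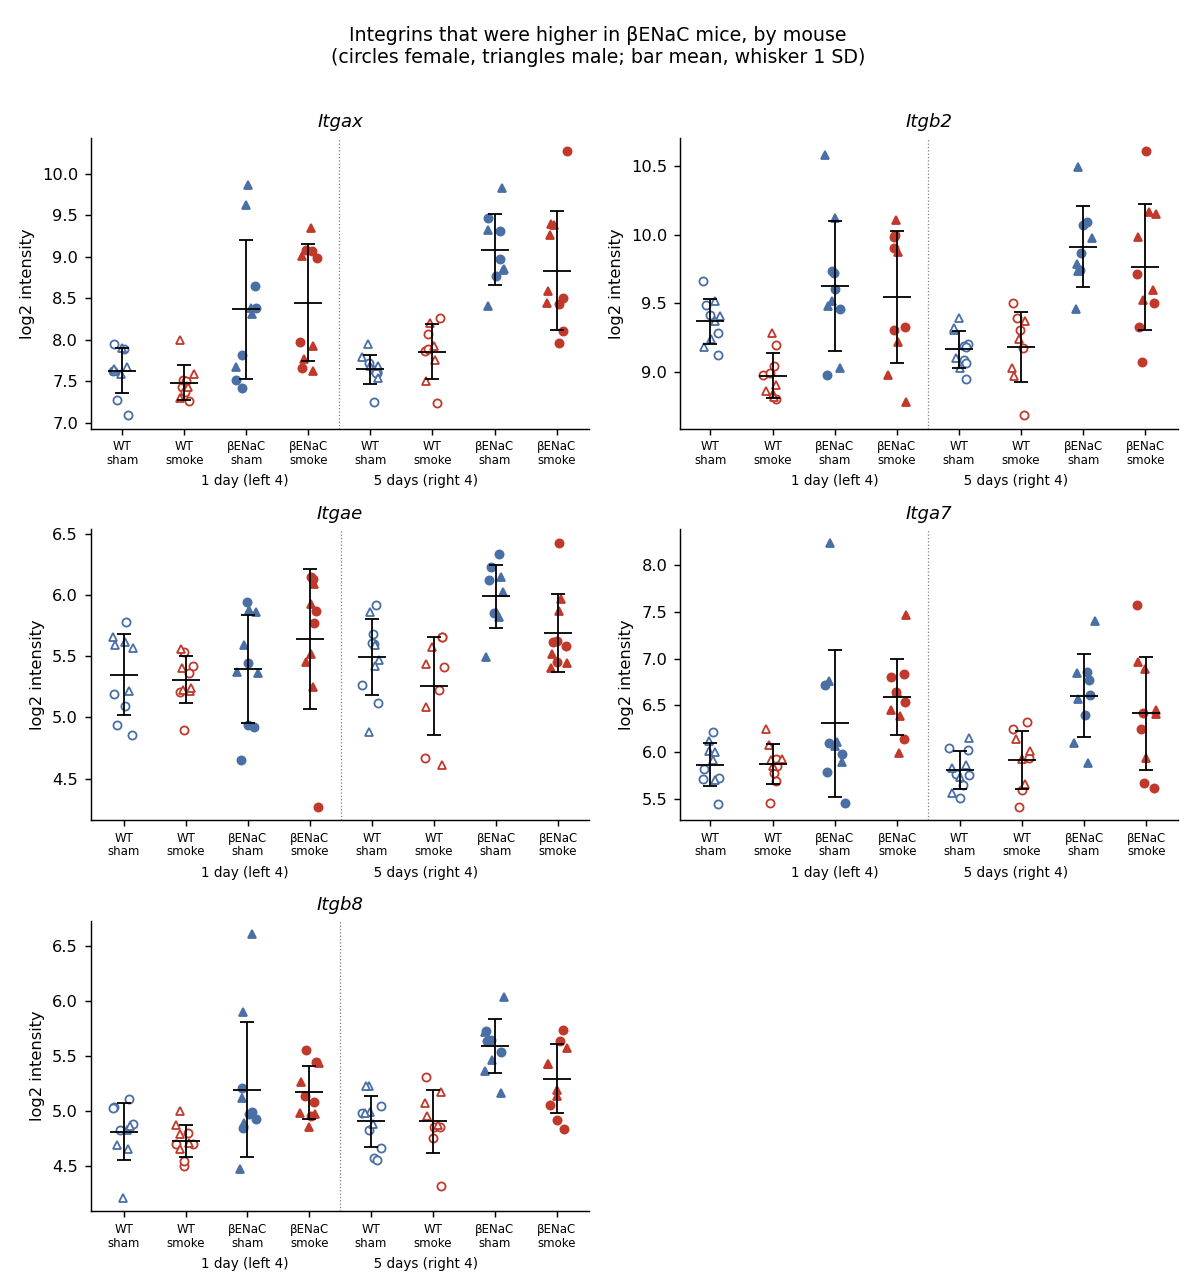
Log2 intensity (vertical axis) of Itgax, Itgb2, Itgae, Itga7 and Itgb8 in each mouse, in 8 columns by genotype, exposure and duration (left 4 columns 1 day, right 4 columns 5 days); open symbols are WT, filled symbols βENaC mice, blue is sham and red smoke, circles are females and triangles males, and bars are means with 1 SD. The filled symbols reach higher than the open ones in each gene, with Itgax at up to 10.27 in βENaC and 8.26 in WT mice at 5 days.

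None of the 17 matrix-binding and shared integrin subunits changed by more than 1.3-fold with smoke. At 1 day 2 rose and none fell: Itgb4, the beta subunit of the hemidesmosome receptor, by 0.20 (SE 0.06, limma adjusted p = 0.0174), and Itga3 by 0.12 (SE 0.04, adjusted p = 0.0398). Without the 3 mice that stood apart Itga3 no longer passed (adjusted p = 0.0541). At 5 days Itgb4 rose by 0.28 (SE 0.05, adjusted p = 0.000555), and 3 subunits fell: Itga9, which binds tenascin, by -0.24 (SE 0.04, adjusted p = 8.75e-06), Itgb6, which activates TGF-beta on epithelium, by -0.24 (SE 0.06, adjusted p = 0.00557), and the collagen receptor subunit Itga2 by -0.26 (SE 0.07, adjusted p = 0.0184). Over all rows, 5.03% rose and 4.43% fell at 1 day, and 3.17% rose and 3.37% fell at 5 days. The median coefficient of the 17 subunits was 0.01 at 1 day and -0.05 at 5 days. Itgb1, the beta subunit shared by most of them, varied least of all members, from 10.91 to 11.30 over the 79 mice, with coefficients of 0.02 and -0.06 that did not pass the test. Besides Itgb1 and Itgad, the members that passed no test by exposure, genotype or sex were Itga1, Itga6, Itga8 and Itgav.

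Laminin chains that changed rose at 1 day and went both ways at 5 days. Of the 11 chains, 5 rose and none fell at 1 day, where 5.03% of all rows rose and 4.43% fell. At 5 days 2 rose and 2 fell, where 3.17% of all rows rose and 3.37% fell. The median coefficient of the 11 chains was 0.11 at 1 day and -0.04 at 5 days. Among the chains that rose at 1 day were Lama1, Lama5, Lamc1 and Lamc3.

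Lama1 (NM_008480, chromosome 17, 67697127 to 67822645) encodes the alpha1 chain of the laminin of embryonic basement membranes. Its lowest, median and highest values at 1 day were 3.499, 4.35 and 5.78 after smoke and 3.13, 3.53 and 3.78 after sham exposure, and at 5 days 3.19, 3.62 and 4.10 against 3.07, 3.37 and 3.62. The sham values, all 5-day smoke values and the 1-day smoke median lay below the median of every array. After smoke 19 of 20 animals (1 day) and 17 of 19 (5 days) were above the matched sham mean. The coefficient of Lama1 was 0.79 (SE 0.12, limma adjusted p = 8.6e-06) at 1 day, or 1.72-fold, and 0.29 (SE 0.07, adjusted p = 0.00297) at 5 days. WT smoke female 1 day replicate 5 had 5.78 where the other 4 mice of its group had 3.80 to 3.99, and without the 3 mice that stood apart the 1-day coefficient was 0.70.

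Lamc3 (NM_011836, chromosome 2, 31887281 to 31949083) encodes the gamma3 chain. Its lowest, median and highest values at 1 day were 5.28, 6.42 and 6.88 after smoke and 5.11, 5.90 and 6.36 after sham exposure, and at 5 days 5.95, 6.38 and 8.14 against 5.35, 5.98 and 6.38. The ranges overlapped, with 18 of 20 and 16 of 19 smoke-exposed mice above the matched sham mean. The coefficient was 0.45 (SE 0.08, limma adjusted p = 0.000178) at 1 day and 0.43 (SE 0.13, adjusted p = 0.0301) at 5 days. The value of 8.14 was that of WT smoke female 5 days replicate 2, and without the 3 mice that stood apart the 5-day coefficient of Lamc3 was 0.34 (adjusted p = 0.0035), a change of under 1.3-fold.

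Lamc1, Lama3 and Lama4 were the members whose response to smoke differed between the durations in the model of exposure, duration and their product, with 0.612% of all rows past that test. Which members passed depended on the mice and the model. Lamb1 did not pass there, but passed without the 3 mice that stood apart (0.28, SE 0.07, limma adjusted p = 0.0229), without the 7 mice (0.31, adjusted p = 0.00486) and with genotype and sex and their products with duration added (0.22, adjusted p = 0.0448). Itgb6 passed with those terms added (0.31, adjusted p = 0.0415) and not without the 3 mice (0.29, adjusted p = 0.197), and Itga5 and Itga9 passed without the 7 mice (0.24 and 0.20, adjusted p = 0.0471 and 0.0212). Lamc1 (NM_010683, chromosome 1, 153218922 to 153332786), the gamma chain of most laminins, had lowest, median and highest values of 9.53, 9.68 and 9.99 after smoke and 9.17, 9.55 and 9.79 after sham exposure at 1 day, and of 9.40, 9.60 and 9.85 against 9.42, 9.65 and 10.04 at 5 days. It rose by 0.21 (SE 0.04, limma adjusted p = 0.000162) at 1 day and had a coefficient of -0.04 at 5 days. The 1-day response exceeded the 5-day response by 0.26 (SE 0.07, limma adjusted p = 0.0401). This call was lost in 20 of the 79 fits that each left out 1 mouse (adjusted p up to 0.0624) and with a replicate block (0.0536), and was kept without the 3 mice that stood apart (0.0387) and without the 7 mice (0.0141).

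Lama3, the alpha chain of the laminin that anchors epithelium, had lowest, median and highest values of 8.97, 9.16 and 9.31 after smoke and 8.66, 9.10 and 9.45 after sham exposure at 1 day, and of 8.43, 9.03 and 9.29 against 8.83, 9.28 and 9.56 at 5 days. Its coefficient was 0.05 at 1 day, and it fell by -0.25 (SE 0.06, limma adjusted p = 0.00519) at 5 days. The responses differed by 0.31 (SE 0.08, adjusted p = 0.0496), a call at the edge of the threshold that was lost in 57 of the 79 fits that each left out 1 mouse and without the 3 mice that stood apart (adjusted p = 0.0879) or the 7 mice (0.06).

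Lama4 (NM_010681, chromosome 10, 38965515 to 39110188), the alpha chain of vessel basement membranes, had lowest, median and highest values of 9.27, 9.48 and 9.63 after smoke and 9.15, 9.42 and 9.54 after sham exposure at 1 day, and of 9.08, 9.37 and 9.56 against 9.25, 9.49 and 9.73 at 5 days. Its coefficient was 0.07 at 1 day, and it fell by -0.12 (SE 0.04, limma adjusted p = 0.0283) at 5 days. The responses differed by 0.19 (SE 0.05, adjusted p = 0.0258). Without the 7 mice the 1-day coefficient of Lama4 also passed the test (0.09, limma adjusted p = 0.0472). Of 6 endothelial markers, 1 rose and none fell at 1 day and none rose and 3 fell at 5 days. Their median coefficients were 0.01 and -0.08. Of 6 fibroblast markers, 1 rose and none fell at 1 day and none rose and 2 fell at 5 days. Their medians were -0.02 and -0.18. No marker of either list passed the duration test, where 2 endothelial and 5 fibroblast markers had an unadjusted p below 0.05. The part of these cell types in the change of Lama4 was not tested. Lama1, with the largest difference between the durations, 0.49 (SE 0.14), did not pass this test (adjusted p = 0.0625), but did pass when genotype and sex and their products with duration were added to the model (adjusted p = 0.0418).

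Of the other chains, Lama5 rose by 0.13 (SE 0.04, limma adjusted p = 0.0198) at 1 day and did not pass at 5 days. Lama2 and the beta chains Lamb1, Lamb2 and Lamb3 did not pass the test for smoke at either duration, with coefficients of 0.04 to 0.11 at 1 day and -0.11 to -0.03 at 5 days. By genotype, Lama5 was higher by 0.14 (SE 0.04, adjusted p = 0.0159) in βENaC mice at 1 day and Lamc1 lower by -0.13 (SE 0.03, adjusted p = 0.00535) at 5 days. Without the 3 mice that stood apart, Lama5 and Lamc3 were also higher in βENaC mice at 5 days (0.11 and 0.26, adjusted p = 0.0251 and 0.026). The same held without the 7 mice (0.11 and 0.28, adjusted p = 0.0311 and 0.0077). Leaving out the 3 mice that stood apart, Lamb1 also fell at 5 days of smoke, by -0.15 (adjusted p = 0.00347).

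**Figure D4:**
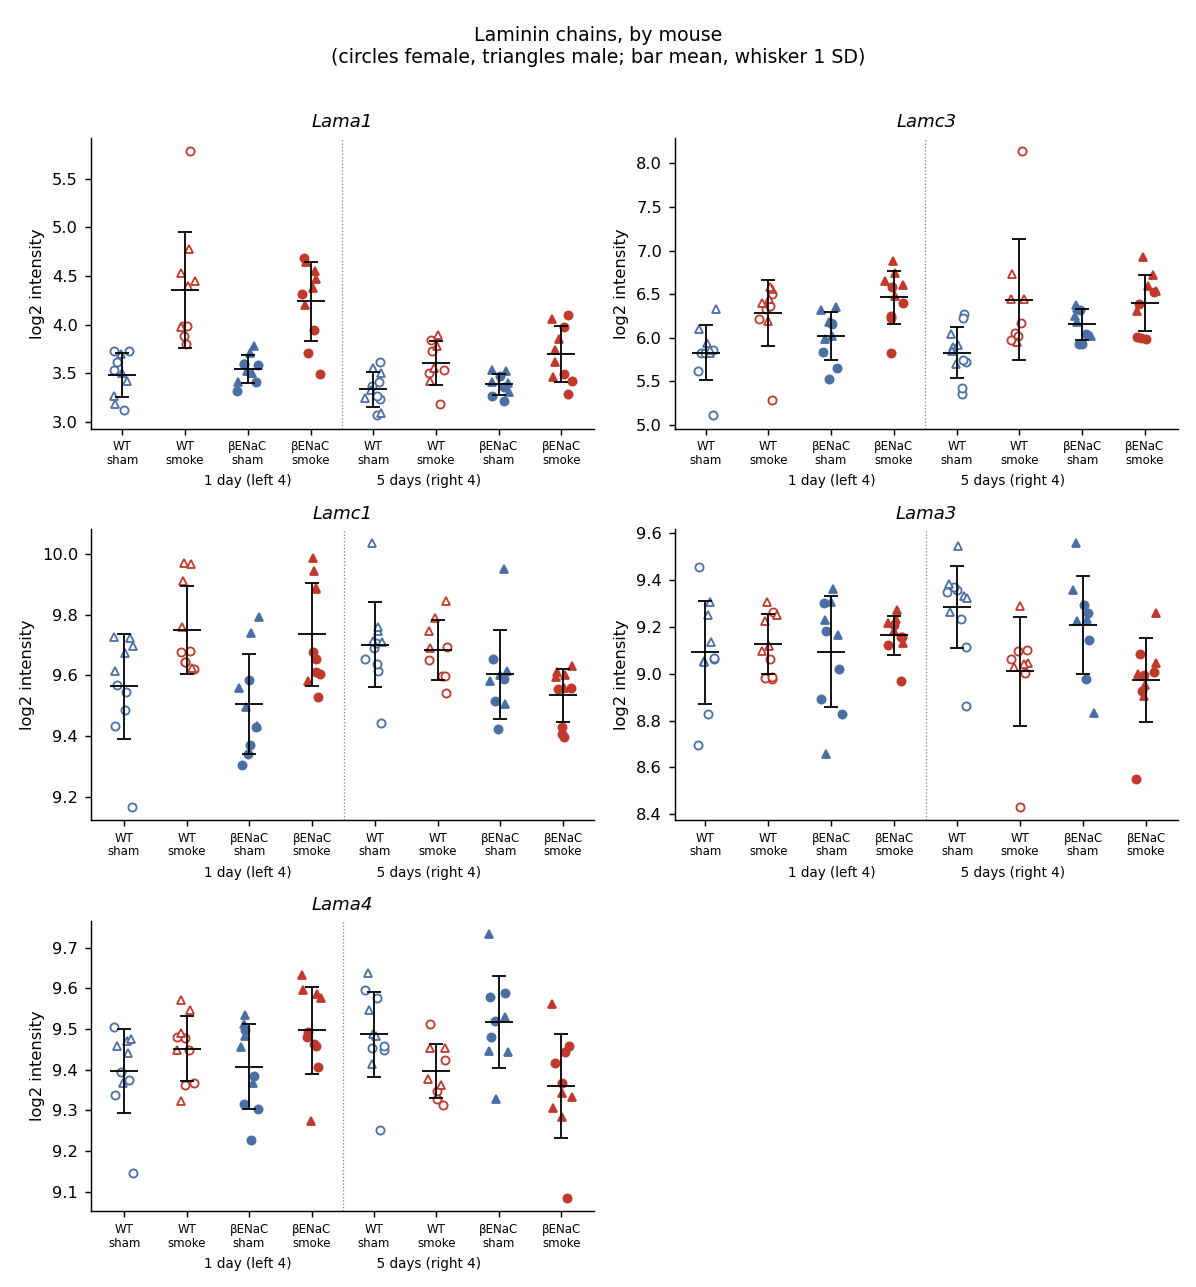
Log2 intensity (vertical axis) of Lama1, Lamc3, Lamc1, Lama3 and Lama4 in each mouse, in 8 columns by genotype, exposure and duration (left 4 columns 1 day, right 4 columns 5 days); blue is sham, red is smoke, filled symbols are βENaC mice, circles are females and triangles males, and bars are means with 1 SD. Lama1 and Lamc3 are higher after smoke at both durations, while the smoke means of Lama3 and Lama4 lie below the sham means at 5 days only; single mice at 5.78 (Lama1) and 8.14 (Lamc3) stand far above their groups.

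Partners of these genes were counted from lists of the pathway. Over all rows, 5.03% rose and 4.43% fell with smoke at 1 day, and 3.17% rose and 3.37% fell at 5 days. Of 18 other basement membrane genes, 5 rose and none fell at 1 day, with a median coefficient of 0.10, and none rose and 4 fell at 5 days, with a median of -0.08. The 5 that rose at 1 day, named after their values were seen, were the collagen IV genes Col4a1 (0.24) and Col4a2 (0.22), the nidogens Nid1 (0.21) and Nid2 (0.24), which tie laminin to collagen IV, and Ntn4 (0.19). Of 15 matrix ligands of integrins, none rose and 1 fell at 1 day, and 1 rose and 4 fell at 5 days. The only pathway gene past 1.3-fold for smoke was the matrix ligand Tnc, which encodes tenascin-C, a ligand of alpha9 integrin, with -0.60 (SE 0.19, limma adjusted p = 0.0463) at 5 days. Of 10 ligands of leukocyte integrins, none changed at 1 day by the limma test (2 at an unadjusted p below 0.05), and 1 fell at 5 days: Vcam1, the endothelial ligand of alpha4 integrins, by -0.29 (SE 0.07), named after its values were seen. Of 23 measured adapters and activators that link integrins to the cytoskeleton, 2 rose and 4 fell at each duration. By genotype, 1 of these adapters was higher and 5 lower in βENaC mice at 1 day (3.58% and 2.29% of all rows). At 5 days 4 were higher and 8 lower (4.85% and 5.33% of all rows).

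Sex was the comparison with the most members past the test at 1 day. There 15 members were higher and 2 lower in males (7.82% and 2.07% of all rows), among them 8 of 11 laminin chains and 7 of 17 matrix-binding subunits higher, with Lamc3 (0.35) the largest. The integrin subunits higher in males were Itga2b, Itga3, Itga5, Itgb3, Itgb4, Itgb5 and Itgb6, by 0.17 to 0.29. The members lower in males were Itga4 and Itgal. Itga4 was the only member over 1.3-fold (0.836% of all rows), with a male minus female coefficient of -0.47 (SE 0.06, limma adjusted p = 7.58e-07). Its lowest, median and highest values at 1 day were 8.21, 8.59 and 9.10 in males and 8.63, 8.99 and 9.88 in females, and all 20 males were below the mean of the females of their own genotype and exposure. At 5 days 6 members were higher and none lower in males (0.472% and 0.144% of all rows), among them Itgb6 (0.31), Lamb3 (0.27), Itga3 (0.15), Lama2 (0.15) and Lamc1 (0.14). Of 18 basement membrane partners of laminins, 13 were higher in males at 1 day and 9 at 5 days, and none was lower. The platelet integrin subunits Itga2b (0.28) and Itgb3 (0.29) were among the members higher in males at 1 day, and 5 of 6 platelet markers were higher in males at each duration; their part in these results was not tested. All 11 laminin chains had a positive coefficient at both durations. The median coefficient of the laminin chains was 0.20 at 1 day and 0.13 at 5 days, beside 0.0085 and -0.0025 over all rows. Without the 7 mice, Lama3 and Lama4 were also higher in males at 1 day (0.16 and 0.10, limma adjusted p = 0.0244 and 0.0221).

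The response to smoke was then compared between genotypes and between sexes. No member passed the limma exposure by genotype test, where 0.00638% of all rows did at 1 day and 0% at 5 days, with 0 members at 1 day and 1 at 5 days at an unadjusted p below 0.05. No member passed the exposure by sex test either, with the same shares of rows, and 0 members at 1 day and 1 at 5 days had an unadjusted p below 0.05. The ordinary linear model also called 0 members in these comparisons. The terms were wide for some leukocyte integrins, for example 0.34 (SE 0.29) at 1 day and 0.03 (SE 0.26) at 5 days for Itgam and 0.22 (SE 0.34) and -0.47 (SE 0.29) for Itgax, so that differences of that size were not detectable with these numbers of mice. Between the durations, no member had a genotype difference (0% of all rows) or a sex difference (0.654% of all rows) that passed the limma test, with 1 and 8 members at an unadjusted p below 0.05; Itga4 came closest for sex, with -0.34 (SE 0.10, adjusted p = 0.0853).

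Whether subunits that form 1 receptor or trimer varied together was examined in 14 pairs over the 79 mice, after the mean of each of the 16 groups had been removed. Of the 14 pairs, 12 were correlated (two-sided permutation test within groups, 100000 resamples, p adjusted over the 14 pairs). The median r of the 14 pairs was 0.53, beside 0.06 for the other 616 pairs of members. Those 616 were all remaining pairs, whatever the cell types of the 2 genes. Leukocyte integrins that form no common receptor were among them, with r of 0.76 for Itga4 and Itgal and 0.74 for Itgal and Itgb7. Itgad and Itgb2, which do form a receptor, were not among the 14 and had r = 0.03. All values of a mouse come from 1 array and share its RNA and its mix of cells.

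The closest pair was Itgax and Itgb2, with Pearson r = 0.89 and Spearman rho = 0.83 (permutation p = 1e-05 for each, the smallest these resamples can give, adjusted p = 2.33e-05 and 2e-05). Without the 2 mice farthest from the median of Itgax r was 0.86, and it was 0.86 among mice of 1 day and 0.94 among mice of 5 days. Itgam and Itgb2 had r = 0.72 and rho = 0.66, with r = 0.63 without the 2 farthest mice. Itgal and Itgb2 had r = 0.58 and rho = 0.57, with r = 0.56 without the 2 farthest mice. Of the 3 alpha partners tested, Itgax followed Itgb2 most closely, and like it was higher in βENaC mice at both durations.

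Itga4 varied with Itgb7 (r = 0.71, rho = 0.63, permutation adjusted p = 2.33e-05 for r) but not detectably with Itgb1, its other partner (r = 0.10, rho = 0.06, permutation p = 0.46 and 0.657, adjusted p = 0.495 and 0.657). Itga4, Itgal and Itgb7, which fell together after smoke, also varied together inside the groups, with r = 0.76 for Itga4 and Itgal and 0.74 for Itgal and Itgb7. Itgam was less close to Itga4 (r = 0.23) and to Itgb7 (r = 0.25), and r was 0.56 with Itgal. These last values are a description. Among laminins Lamb1 and Lamc1 had r = 0.55 and rho = 0.56, Lama3 and Lamb3 r = 0.53 and rho = 0.44, and Lama5 and Lamb2 r = 0.43 and rho = 0.41. The pair that forms the hemidesmosome receptor, Itga6 and Itgb4, had r = 0.06 (permutation p = 0.665, adjusted p = 0.665). The pairs of Itgae and Itgb7, Itga8 and Itgb1, Itgav and Itgb6, and Itga2b and Itgb3 had r between 0.40 and 0.54. Within the 1-day and the 5-day mice taken alone, 11 pairs passed at each duration.

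**Figure D5:**
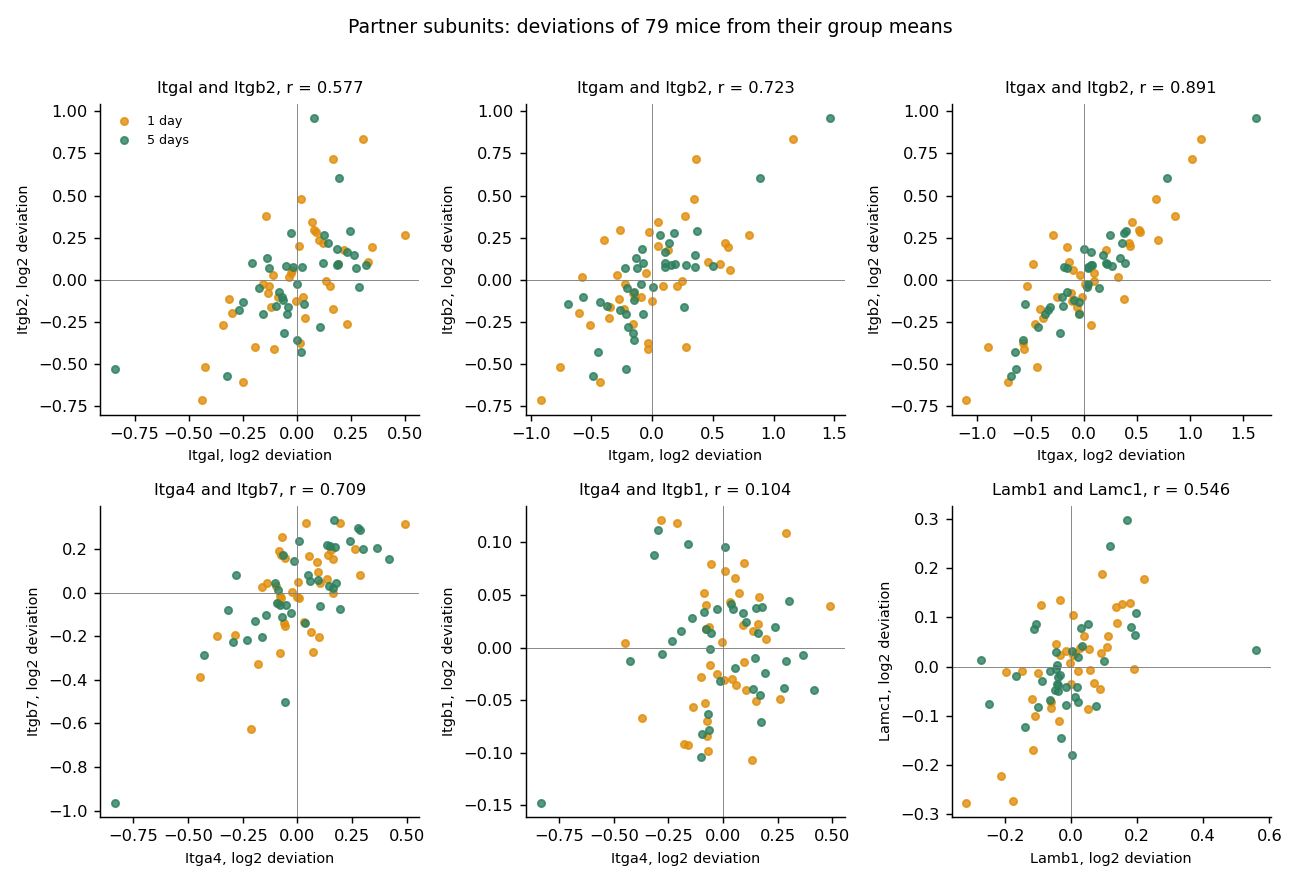
Deviations of 79 mice from their group means in log2 intensity, 1 point per mouse, for 6 subunit pairs (first gene on the horizontal, second on the vertical axis; orange 1 day, green 5 days). Points of Itgax and Itgb2 lie along a line (r = 0.89), those of Itga4 and Itgb7 less tightly (r = 0.71), and those of Itga4 and Itgb1 form no line (r = 0.10).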

How the data were processed

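Whole lung RNA was hybridised to Affymetrix Mouse Gene 2.1 arrays on 1 plate. Per the labels, the authors normalised the arrays by RMA (Expression Console 1.4, Partek 6.6) and deposited log2 intensities, 1 row per transcript. One array was removed by the authors as mislabelled.

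Rows were named through RefSeq accessions (21057 rows) or the study's own probe lists (780), and 9513 rows had no symbol. limma 3.58.1 in R 4.3.3 was fitted to all 31350 rows at each duration with genotype, exposure and sex, and Benjamini-Hochberg adjustment ran over all rows. The duration test used exposure, duration and their product over all mice, and the other interaction terms added their products. The 1.3-fold limit was a log2 difference of 0.379. The fits were tested on simulated data. Subunit pairs were correlated in Python 3.11.15 with numpy 2.4.6. Alternatives were other normalizations, models, filters and thresholds, a replicate block, and leaving out each mouse or, after seeing the data, 3 or 7 mice that stood apart. Members described in full were those past both limits for smoke, those past the exposure by duration test, and up to 6 past both limits for genotype and for sex at each duration; pathway genes were named past both limits for smoke, and cell markers as the largest of their list. 1 member entered the counts but is not reported here by name. Members, lists and tests were chosen with earlier results of these data known. No set test was run. Replicates are separate mice, and no batch is given beyond the shared plate. Precision is set by how many arrays were run: the median SE of a smoke coefficient was 0.0503 at 1 day and 0.0502 at 5 days.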

Additional observations from a re-analysis of the deposited data

Results flagged for a closer look

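In each group of 4 to 6 mice, the 13 members described in full were searched for a single mouse far from the rest of its group. An outlying mouse was found in 25 of 208 combinations of gene and group, where chance gives about 1 in 20.

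WT smoke female 5 days replicate 2 stood out in 4 members. Its value was lowest for Itgal (6.637, others 7.598 to 7.765), Itga4 (7.722, others 8.565 to 8.859) and Lama3 (8.432, others 9.005 to 9.101), and highest for Lamc3 (8.138, others 5.976 to 6.165). βENaC smoke female 5 days replicate 3 was highest for Itgax (10.27, others 7.964 to 8.497), Itgam (9.121, others 6.958 to 7.526) and Itgae (6.429, others 5.452 to 5.623), and lowest for Lama4 (9.085, others 9.368 to 9.458). WT smoke female 1 day replicate 5 was highest for Lama1 (5.781, others 3.799 to 3.991) and lowest for Lamc3 (5.282, others 6.212 to 6.496).

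At 1 day, βENaC smoke female replicate 5 was lowest for Itgae (4.269) and Itgal (7.483), and βENaC smoke male replicate 5 was lowest for Lama4 (9.274) and Lamc1 (9.581). Other outlying mice of 1 day were WT sham male replicate 1 for Itgae (5.217), WT sham male replicate 2 for Itgax (7.897), WT smoke male replicate 5 for Itgb2 (9.287) and βENaC sham male replicate 1 for Lama3 (8.656). At 5 days WT sham female replicate 3 was lowest for Itgax (7.249) and Lamc1 (9.444), and βENaC sham female replicate 3 was highest for Itgam (8.429). The remaining ones of 5 days were βENaC sham male replicate 2 (9.95) and WT sham male replicate 5 (10.04) for Lamc1, WT smoke male replicate 4 for Lama3 (9.288) and βENaC smoke male replicate 5 for Lama4 (9.562).

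The response to smoke differed between 1 and 5 days, by the limma test of the difference itself, in Lama3 (0.313), Lama4 (0.195) and Lamc1 (0.261), the 1-day response being the higher.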

How the results depend on the processing

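Of 33 single coefficients, each kept its direction under every alternative run, and calls were kept in 382 and lost in 14 recomputations other than leaving out a mouse, and kept in 1318 and lost in 104 that left out 1 mouse. The calls lost were Lama3 for the duration difference (adjusted p = 0.0527 with an ordinary linear model), Lama1 for smoke at 5 days (0.051) and Itga4 for genotype at 1 day (0.0913) with 1 fit over all mice, Itga4 again with array weights (0.0539), Lama4 for smoke at 5 days with median centring (0.0502) and Lamc1 for sex at 5 days with cyclic loess (0.0679). The cause was not tested. With more than 1.3-fold required as well, 5 (smoke, 1 day), 3 (smoke, 5 days), 4 (genotype, 1 day), 1 (sex, 1 day), 0 (sex, 5 days) and 0 (smoke by duration) members were called. At an adjusted p below 0.01 there were 6, 7 and 2 for smoke at 1 and 5 days and genotype at 1 day, 3 for sex at 5 days and 0 for smoke by duration. The count for smoke by duration, 3 in the report, was 6 with genotype, sex and their products with duration added, 5 with array weights, and 1 to 4 when each mouse was left out; the Lama3 call was lost in 57 and the Lamc1 call in 20 of 79 such fits. For genotype or sex by duration that range was 0 to 1. Without the 3 mice that stood apart, left out after seeing the data, 10 members in place of 6 differed by sex at 5 days, and the Lama3 call for the duration difference was lost (0.0879). Without 7 mice, also left out after seeing the data, the count for smoke by duration was 5, and 4 calls were lost: Itga4 (0.113) and Itgb2 (0.0532) for genotype at 1 day, Lamc1 for sex at 5 days (0.0516) and Lama3 for the duration difference (0.06). Other counts stayed within 1.5 times the reported ones.

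The deviations of mice with the same replicate number had a median correlation of 0.01 over 266 pairs, beside 0.000354 for differently numbered mice. The highest was 0.538, 42 pairs were above 0.1, and 28 of the 79 mice correlated best with a same-numbered mouse. How many would do so if the numbers meant nothing was not computed. A median over all pairs cannot show whether mice of some numbers deviate together, and this was not tested. With a replicate block the count for smoke by duration was 1, as Lama3 (adjusted p = 0.0522) and Lamc1 (0.0536) were lost, and Lamc3 for smoke at 5 days was lost (0.0515). Averaging the rows of a gene was not run, because each member had 1 row.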
